A study of Mus musculus with 17 samples.

Results

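The 7 genes examined here, Drd1, Drd2, Adora2a, Ppp1r1b, Rgs9, Penk and Tac1, are markers of striatal medium spiny neurons. They were taken by symbol from a table of 24498 genes, and all 7 were found. Their read counts were compared in 17 bulk libraries of poly(A) RNA from 1-mm slices of mouse dorsal hippocampus, taken to include the dentate gyrus and CA1 to CA3. Animals were either Acss2 knockout (KO) or wild type (WT), bred as separate homozygous lines from the F1 offspring of heterozygotes. At 6 months of age they had been injected in the right dorsal hippocampus with tau purified from human Alzheimer's disease cortex (Tau) or with PBS, and the study collected tissue after a further 6 months. Males of each genotype had received PBS or Tau, with 3 libraries in each of the 4 groups, and females had received Tau only, with 3 KO and 2 WT libraries. Library numbers below are those of the labels. Female mice had no PBS group. All female libraries carried numbers of a different series from the male libraries, so sex and number series cannot be told apart. The study's methods name only male mice for bulk sequencing, whereas the labels give both sexes, and the groups used here are those of the labels. Xist, the transcript of the inactive X chromosome, stood at 743 to 1209 CPM (counts scaled to the library total) in the 5 libraries labelled female and at no more than 0.121 in the 12 labelled male, and the Y-linked Ddx3y at no more than 0.0684 and at 50.1 to 71.0 CPM, so that both followed the labelled sex in all 17 libraries.

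Medium spiny neurons are the GABAergic projection neurons that make up most of the striatum. Those of the direct pathway carry the D1 dopamine receptor (Drd1) and make substance P (Tac1), and those of the indirect pathway carry the D2 dopamine receptor (Drd2) and an adenosine receptor (Adora2a) and make enkephalin (Penk). Both types hold DARPP-32 (Ppp1r1b), which inhibits protein phosphatase 1 once protein kinase A has phosphorylated it, and RGS9-2 (Rgs9), which shortens signalling through inhibitory G proteins. Several of the genes are also used within the hippocampus: Drd2 in mossy cells of the hilus, and Penk and Tac1 in some interneurons. In bulk tissue, fewer cells of a type and less RNA per cell cannot be told apart.

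On GRCm38, in GENCODE coordinates, Drd1 lies at chr13:54051183-54055705 (minus strand), Drd2 at chr9:49340627-49408177 (plus), Adora2a at chr10:75316877-75334784 (plus), Ppp1r1b at chr11:98348404-98357796 (plus), Rgs9 at chr11:109225355-109298129 (minus), Penk at chr4:4133531-4138819 (minus) and Tac1 at chr6:7554879-7565834 (plus). All are protein coding, and the reads were counted over their exons. Promoters of the members are shown as up to 250 bases before the RefSeq start on GRCm38.p6. They are cut so that no base lies within a GENCODE exon of these genes. The part of promoter sequence in the members' levels was not tested. The sequences matched 4 of the 7 genes, and Adora2a, Ppp1r1b and Penk were not matched. Drd1 has a pair of starts, and the window before the second lies in an intron of the longer transcript. Each line reads 5′ to 3′ on the gene's strand, and capitals mark the half-site of the cAMP response element (CRE), the motif bound by CREB.
Drd1, first start, chr13:54055706-54055908, minus: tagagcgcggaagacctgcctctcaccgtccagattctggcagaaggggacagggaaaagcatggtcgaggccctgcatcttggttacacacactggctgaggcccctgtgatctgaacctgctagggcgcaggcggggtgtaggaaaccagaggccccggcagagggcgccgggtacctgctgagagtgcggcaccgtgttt
Drd1, second start, chr13:54054781-54055030, minus: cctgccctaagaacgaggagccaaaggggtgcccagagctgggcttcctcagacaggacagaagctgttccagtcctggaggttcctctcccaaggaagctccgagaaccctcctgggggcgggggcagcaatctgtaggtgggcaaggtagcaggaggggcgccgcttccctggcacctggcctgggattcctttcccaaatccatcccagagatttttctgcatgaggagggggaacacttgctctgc
Drd2, chr9:49340153-49340402, plus: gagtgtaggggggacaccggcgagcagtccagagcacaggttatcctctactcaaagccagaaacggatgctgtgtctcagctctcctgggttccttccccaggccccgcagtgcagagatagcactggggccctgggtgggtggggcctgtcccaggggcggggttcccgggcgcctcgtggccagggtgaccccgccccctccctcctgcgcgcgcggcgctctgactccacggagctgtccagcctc
Rgs9, chr11:109298182-109298431, minus: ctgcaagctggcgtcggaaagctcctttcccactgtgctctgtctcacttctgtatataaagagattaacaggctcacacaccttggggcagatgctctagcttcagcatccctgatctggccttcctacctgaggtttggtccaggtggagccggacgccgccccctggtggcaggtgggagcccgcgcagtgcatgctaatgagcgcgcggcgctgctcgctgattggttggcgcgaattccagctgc
Tac1, chr6:7554811-7554878, plus: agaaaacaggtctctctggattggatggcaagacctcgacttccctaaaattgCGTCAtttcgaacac
The half-site was searched as TGACG and its reverse complement CGTCA, both of which lie within the full element TGACGTCA. It occurred once, in the 68 bases of Tac1, and 3.45% of 32851 RefSeq promoters held it in a window of that length. The half-site was not found in the other windows, where 13.03% of promoters held it in 203 bases and 17.77% in 250. All windows, of these genes and of the other promoters, began 250 bases before the RefSeq start. Those of Tac1 and of the first Drd1 start ended short of it, so the bases nearest these starts were not searched. The full element was in none of the windows shown and in 1.55% of promoters at 250 bases.

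Library totals ran from 14183131 to 22463635 counts. Counts were divided by these totals and put on a common scale (CPM), on which 3 counts, the limit that a count of 0 allows, correspond to 0.134 to 0.212 CPM. These limits, and the exact intervals given below, cover counting error only. Acss2, the targeted gene, stood at 3.07 to 8.81 CPM in KO and at 44.0 to 54.6 CPM in WT libraries, with no overlap. The labels do not say whether each library came from a separate animal, and p-values then measure only the spread between these libraries. Hippocampal marker genes were detected in all 17 libraries, but their sums differed, as given below for the library that stood apart.

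Male KO PBS replicate 752 stood apart from the rest. It held the highest CPM among the 17 libraries for 7 of 7 members, whereas it was the highest library for 9.58% of 15594 genes tested. The summed CPM of the members was 439 in replicate 752 and 186 in female WT Tau replicate 341, against 107 to 151 in the other libraries. Fold changes that rest on either library are therefore given below with and without it. Replicate 331, the other female WT Tau library, was the highest library for 19.6% of genes, though for no member, and female KO Tau replicate 325 for 13.1%.

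**Figure D1:**
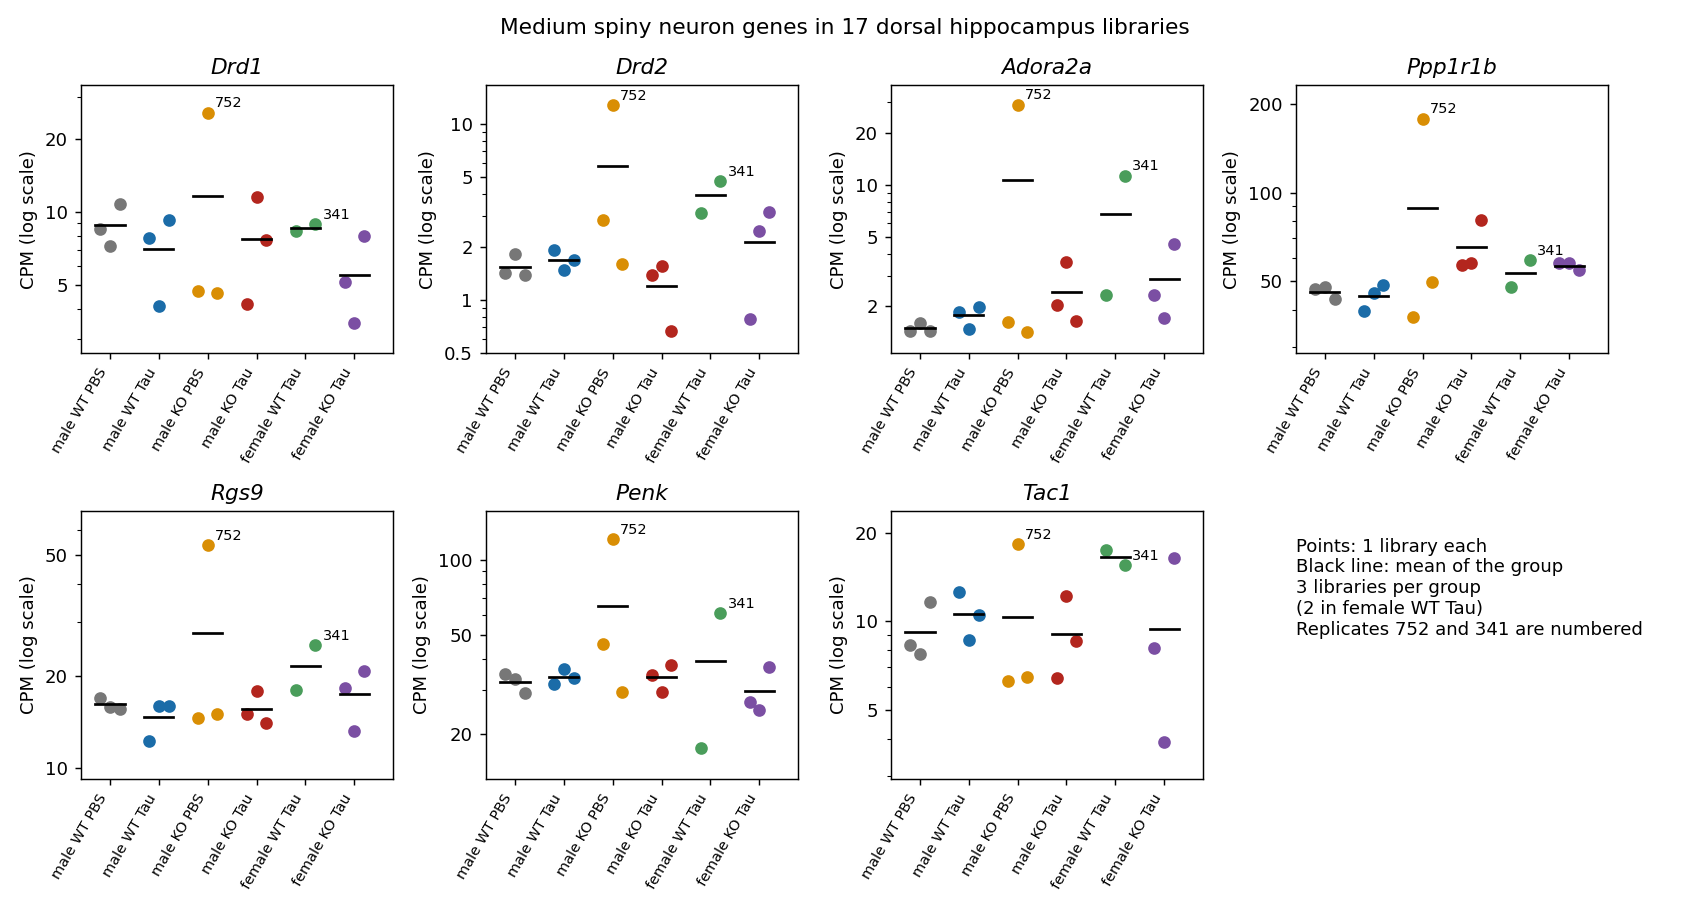
CPM of each member (log scale) in the 6 groups, with 1 point per library and a line at the group mean. Replicate 752 was the highest library for all 7 genes, and replicate 341 was next for Drd2, Adora2a, Rgs9 and Penk.

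Among the receptors, Drd1 was measured at 8.49, 7.23 and 10.8 CPM in male WT PBS (791, 792, 793), 4.72, 25.8 and 4.62 in male KO PBS (751, 752, 753), 7.81, 4.11 and 9.30 in male WT Tau (771, 772, 773) and 4.16, 11.5 and 7.67 in male KO Tau (711, 712, 713). The female libraries held 8.34 and 8.95 CPM in WT Tau (331, 341) and 5.15, 3.49 and 7.96 in KO Tau (314, 324, 325). Replicates 751 and 753 thus lay below every male WT PBS library while replicate 752 lay above every library of the series. The other groups overlapped their neighbours in the order of the means, which fell from male KO PBS (11.7 ± 12.2 CPM, SD, n = 3; 4.67 ± 0.0668 without 752, n = 2) through male WT PBS, female WT Tau, male KO Tau and male WT Tau to female KO Tau (5.53 ± 2.26, n = 3).

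Drd2, the D2 receptor of the indirect pathway, stood at 1.43, 1.81 and 1.37 CPM in male WT PBS, 2.84, 12.8 and 1.60 in male KO PBS, 1.91, 1.48 and 1.67 in male WT Tau and 1.39, 1.56 and 0.659 in male KO Tau. In the female mice it stood at 3.13 and 4.72 CPM in WT Tau and 0.776, 2.46 and 3.17 in KO Tau. Of the male libraries outside replicate 752, only replicate 751 exceeded 2 CPM, while 4 of 5 female libraries did. The lowest value, 0.659 CPM in replicate 713, rested on 14 reads. The male KO PBS mean of 5.75 ± 6.15 CPM (n = 3) became 2.22 ± 0.876 (n = 2) without replicate 752, and all neighbouring groups overlapped.

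Adora2a had the widest spread of the 7, with a coefficient of variation of 93.6% among the 16 libraries other than 752. It was measured at 1.43, 1.60 and 1.43 CPM in male WT PBS, 1.62, 29.1 and 1.42 in male KO PBS, 1.85, 1.48 and 1.97 in male WT Tau and 2.02, 3.60 and 1.65 in male KO Tau. The female values were 2.32 and 11.4 CPM in WT Tau and 2.33, 1.71 and 4.54 in KO Tau. Replicate 752 alone held 40.8% of the Adora2a CPM summed over the 17 libraries, and replicates 341, 325 and 712 came next. The male KO PBS mean of 10.7 ± 15.9 CPM (n = 3) became 1.52 ± 0.144 (n = 2) without replicate 752, next to 1.49 ± 0.100 in male WT PBS (n = 3).

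Of the intracellular signalling genes, Ppp1r1b stood at 46.9, 47.6 and 43.6 CPM in male WT PBS, 37.9, 178 and 49.6 in male KO PBS, 39.8, 45.6 and 48.5 in male WT Tau and 56.7, 57.7 and 80.9 in male KO Tau. The female libraries held 47.9 and 59.1 CPM in WT Tau and 57.5, 57.6 and 54.5 in KO Tau. All 3 male KO Tau libraries lay above all 6 male WT libraries, whereas the female KO Tau libraries lay between the WT Tau pair. In the comparisons of male KO Tau with WT PBS and with WT Tau, 6.33% and 4.71% of all genes tested had an unadjusted edgeR p under 0.05, and Ppp1r1b was not among them. Female WT Tau (53.5 ± 7.88, n = 2) lay above male WT PBS (46.1 ± 2.15, n = 3) without overlap, the only neighbouring groups in the order of Ppp1r1b means to do so. The male KO PBS mean went from 88.6 ± 77.9 CPM (n = 3) to 43.8 ± 8.26 (n = 2) without replicate 752.

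Rgs9 varied least among the other 16 libraries, with a coefficient of variation of 18.9%. It was measured at 16.99, 15.9 and 15.6 CPM in male WT PBS, 14.6, 53.6 and 15.01 in male KO PBS, 12.2, 15.9 and 15.9 in male WT Tau and 14.95, 17.8 and 14.0 in male KO Tau. The female libraries held 17.9 and 25.2 CPM in WT Tau and 18.3, 13.2 and 20.8 in KO Tau. Apart from replicates 752 and 341 no library exceeded 20.8 CPM, and all neighbouring groups overlapped. Without replicate 752 the male KO PBS mean went from 27.7 ± 22.4 CPM (n = 3) to 14.8 ± 0.286 (n = 2).

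Among the neuropeptide precursors, Penk stood at 34.8, 33.3 and 29.4 CPM in male WT PBS, 45.9, 121 and 29.5 in male KO PBS, 31.7, 36.4 and 33.8 in male WT Tau and 34.6, 29.6 and 37.8 in male KO Tau. The female WT Tau pair held 17.7 CPM (331) and 61.1 CPM (341), the lowest and the second highest values of the series. The female KO Tau libraries lay between them at 27.1, 25.1 and 37.3 CPM. All neighbouring groups overlapped in the order of Penk means, and the male KO PBS mean went from 65.4 ± 48.6 CPM (n = 3) to 37.7 ± 11.6 (n = 2) without replicate 752.

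Tac1 was the member least set apart in replicate 752. It was measured at 8.33, 7.75 and 11.6 CPM in male WT PBS, 6.29, 18.3 and 6.50 in male KO PBS, 12.6, 8.66 and 10.5 in male WT Tau and 6.43, 12.2 and 8.61 in male KO Tau. The female values were 17.5 and 15.5 CPM in WT Tau and 8.11, 3.90 and 16.4 in KO Tau. Female WT Tau (16.5 ± 1.38, n = 2) had the highest mean and lay above male WT Tau (10.6 ± 1.96, n = 3) without overlap. Replicate 325 reached the female WT Tau range while replicate 324 had the lowest Tac1 of the series. The male KO PBS mean went from 10.4 ± 6.85 CPM (n = 3) to 6.40 ± 0.148 (n = 2) without replicate 752.

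Per length, over exons of GENCODE and in RPKM (CPM divided by exon length in kilobases), the members' mean levels over the 16 libraries other than 752 were 20.8 for Penk, 17.8 for Ppp1r1b, 2.96 for Tac1, 2.59 for Rgs9, 1.97 for Drd1, 0.863 for Adora2a and 0.785 for Drd2. Penk and Ppp1r1b were thus the most abundant members and Drd2 and Adora2a the least. The ratio of Adora2a to Drd1 by RPKM, which sets an indirect against a direct pathway receptor, was 1.34 in replicate 752 and 1.503 in replicate 341. In the other 15 libraries it ran from 0.157 to 0.676. The ratio of Drd2 to Drd1 by RPKM ran from 0.122 to 1.01 over all 17 libraries and was within that range in replicates 752 (0.707) and 341 (0.751).

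Replicate 752 exceeded replicates 751 and 753 combined in every member. By CPM, with exact 95% intervals, the ratio was 19.2 for Adora2a (14.8 to 25.4), 5.85 for Drd2 (4.56 to 7.57), 5.53 for Drd1 (4.66 to 6.59), 4.05 for Ppp1r1b (3.82 to 4.29), 3.61 for Rgs9 (3.26 to 4.01), 3.24 for Penk (3.03 to 3.46) and 2.85 for Tac1 (2.41 to 3.38). The members therefore did not differ by a common factor. Against replicates 751 and 753, the receptors of the indirect and direct pathways differed by more than the neuropeptides. Against the median of the other 16 libraries, Adora2a (16.4) and Drd2 (7.83) again had the largest ratios. By that measure Drd1 (3.335) lay below Penk (3.602) and above Tac1 (2.115). Female WT Tau replicate 341 exceeded replicate 331 in another pattern, by 4.90 in Adora2a (3.50 to 7.03), 3.46 in Penk (3.06 to 3.93), 1.51 in Drd2 (1.08 to 2.14), 1.404 in Rgs9 (1.22 to 1.62) and 1.23 in Ppp1r1b (1.13 to 1.35). In the direct pathway genes the pair did not differ beyond counting error, at 1.07 for Drd1 (0.862 to 1.34) and 0.889 for Tac1 (0.760 to 1.04).

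**Figure D2:**
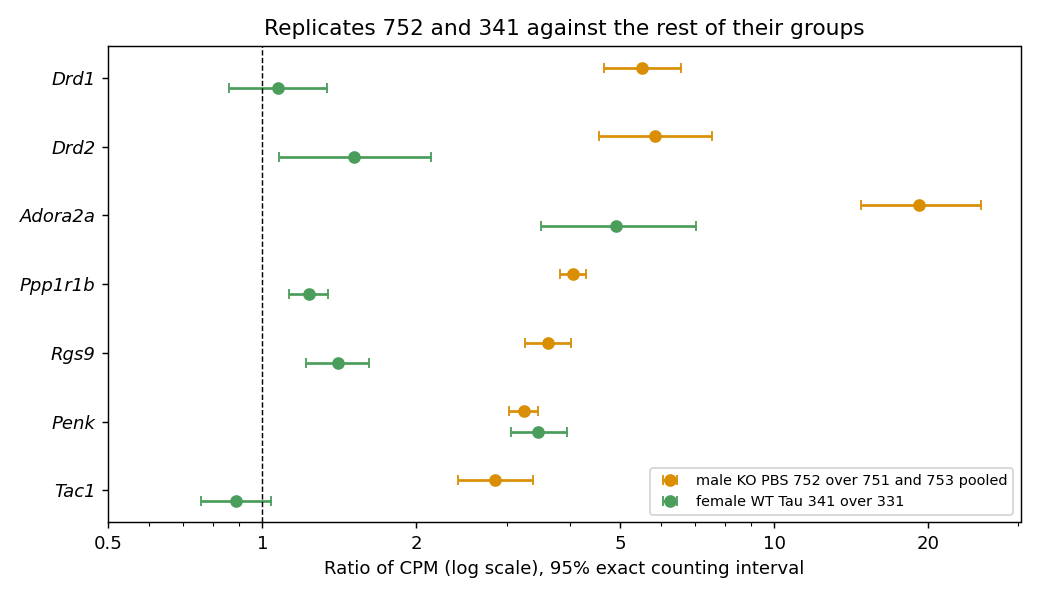
Ratio of CPM (log scale) in replicate 752 to replicates 751 and 753 pooled, and in replicate 341 to replicate 331, with exact 95% counting intervals and a dashed line at 1. All 7 intervals for replicate 752 lie above 1, and for replicate 341 those of Drd1 and Tac1 include 1.

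Other genes of medium spiny neurons were read from a list of 25 genes, of which 24 passed the filter over all libraries. Replicate 752 was the highest library for 19 of the 24, beside 9.58% of all genes. The list's summed CPM was 2057 there against 1008 to 1178 in the other libraries. Of the 6 genes with the highest mean CPM, Pde10a, a phosphodiesterase of both pathways, stood at 205 CPM in replicate 752 against 57.3 to 96.9 elsewhere, and Rasd2, a small GTPase, at 175 against 71.0 to 134. Ptpn5, the striatum-enriched tyrosine phosphatase, stood at 220 against 109 to 207 CPM.
Adcy5, the main adenylyl cyclase of the striatum, reached 190 against 116 to 187 CPM, and Gnal, the stimulatory G protein subunit that couples to it, 210 against 113 to 188. Bcl11b, a transcription factor of medium spiny neurons that hippocampal neurons also express, went the other way, at 77.8 CPM in replicate 752 and 86.4 to 237 elsewhere.
A gene with a larger ratio, chosen here after its values were seen, was Scn4b, a sodium channel subunit, at 365 CPM in replicate 752 against at most 90.0 elsewhere. The other tested genes for which replicate 752 was not the highest were Meis2, Lrrc10b, Chrm4 and Sp9, named for that reason. Drd3, the D3 dopamine receptor and the listed gene that did not pass the filter, had no read in replicate 752 and at most 0.179 CPM elsewhere.

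**Figure D3:**
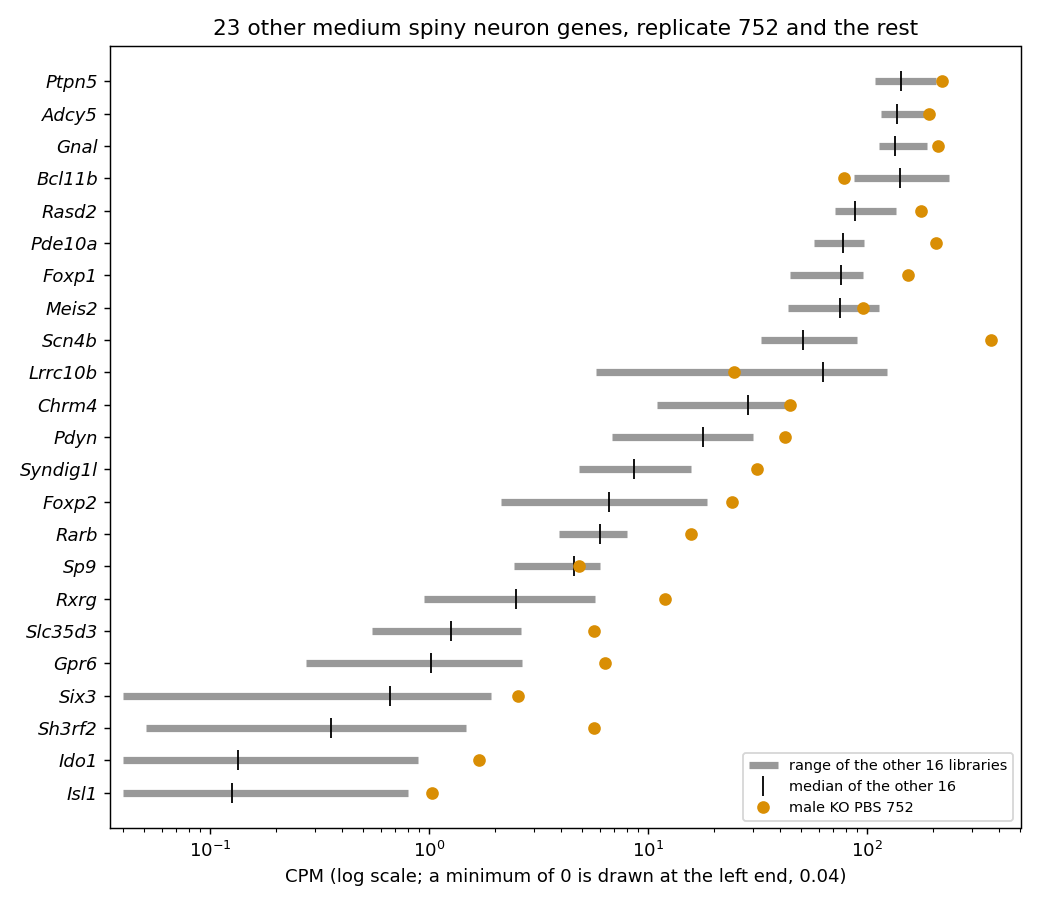
CPM (log scale) of 23 other medium spiny neuron genes in replicate 752 (points), with the range (bars) and median (ticks) of the other 16 libraries. Replicate 752 lies beyond the upper end of the range for 18 of the genes drawn, with Scn4b at 365 CPM, and below the lower end for Bcl11b.

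Markers of hippocampal and other cells were summed in the same way. In replicate 752 the 8 dentate granule cell genes summed to 147 CPM, the lowest of all libraries (162 to 614 elsewhere), and the 6 CA3 genes to 331 CPM, also the lowest (395 to 646). The 6 CA1 genes summed to 206 CPM, next to 201 in replicate 331 and 271 to 650 in the rest. Single markers were lower still: Dsp, a dentate granule cell gene, stood at 0.907 CPM against 4.64 to 88.7 elsewhere, and Iyd, a CA3 gene, at 0.0605 CPM, under the limit that a count of 0 allows. These were chosen after their values were seen.
Genes of neocortex summed to 815 CPM in replicate 752 and 854 CPM in replicate 712 (269 to 714 elsewhere). The neocortex genes did not move together in replicate 752, which was the highest library for 4 of the 12 and the lowest for 2. Lamp5, at 350 CPM against 24.1 to 229 elsewhere, and Cux2, at 121 against 18.9 to 89.5, were above the range, and Tshz2 (22.7 against 23.6 to 165) and Etv1 (34.6 against 48.8 to 79.0) were below it; these 4 were also chosen after their values were seen. Inhibitory neuron genes summed to 1536 CPM there, the highest of all (724 to 1383). They did not move together either, and replicate 752 was the highest library for 6 of the 10, beside 9.58% of all genes. Gad1 stood at 563 CPM there against 190 to 448 elsewhere, while Sst, Cck, Vip and Adarb2 lay within the range of the other libraries. Sums were lowest of all in replicate 752 for choroid plexus (27.6 CPM), thalamus (113 CPM) and lateral septum (47.1 CPM), and no gene of these 3 lists or of the hippocampal lists was at 0 there. The part of these differences in the members' levels was not tested.
Replicate 341 did not share this profile: it held 365 CPM of dentate granule cell genes, 422 of CA1, 629 of CA3, 356 of neocortex and 903 of inhibitory neuron genes, and 1139 of the other medium spiny neuron genes, all within the range of the remaining libraries.

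**Figure D4:**
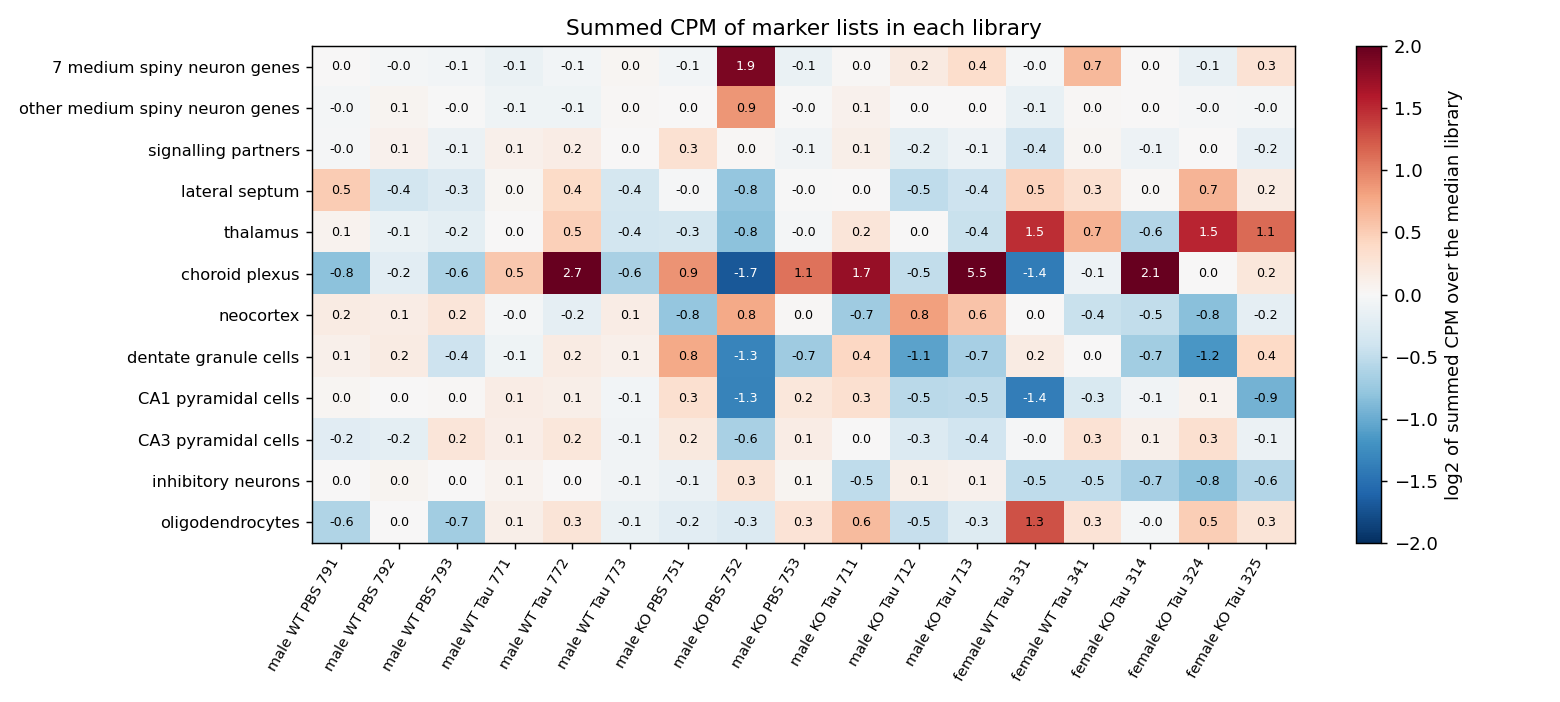
Summed CPM of each marker list in each library, as the log2 of its ratio to the median library (colours end at 2 and -2, numbers give the values). Replicate 752 is highest for the 7 medium spiny neuron genes and the other medium spiny neuron genes and lowest for dentate granule, CA3, choroid plexus, thalamus and septum genes, and replicate 713 stands out for choroid plexus at 4142 CPM.

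The design allowed 8 comparisons, fitted over all genes with the edgeR quasi-likelihood test, 6 from the 12 male libraries and 2 from the 11 Tau libraries. No member passed a false discovery rate (FDR) of 0.05 in any of them, and DESeq2 called none either. The comparisons share groups: male KO PBS enters KO PBS against WT PBS, KO Tau against KO PBS and the interaction, so replicate 752 enters all 3.

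The first comparison asks what tau did in WT mice. In male WT Tau against male WT PBS, 0% of 15098 genes passed the FDR and 1.86% had an unadjusted p under 0.05, and 0 of the 7 members had either. The members' log2 fold changes ran from -0.33 ± 0.62 (SE) for Drd1 to 0.23 ± 1.01 for Adora2a, with a median of 0.05 beside -0.01 over all genes. Without replicate 752, which is not in these groups but enters the estimate of the spread, the SE of Adora2a fell to 0.30 and that of Drd1 to 0.35, and no member had p under 0.05.

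The genotype was then compared after PBS. In male KO PBS against male WT PBS, 0.00662% of genes (1 gene) passed the FDR and 4.42% had p under 0.05. The members had log2 fold changes above 0 in 7 of 7 cases, with a median of 0.99 beside 0.01 over all genes, and 4 had p under 0.05. These were Adora2a (2.88 ± 0.97), Drd2 (1.94 ± 0.64), Penk (1.06 ± 0.38) and Ppp1r1b (0.99 ± 0.45), each with an edgeR adjusted p = 0.999.
These values rested on replicate 752. Without it, 0.00655% of 15266 genes passed the FDR and 5.76% had p under 0.05, and no member had either. The log2 fold change became 0.08 ± 0.34 for Adora2a, 0.58 ± 0.37 for Drd2, 0.27 ± 0.18 for Penk and -0.02 ± 0.16 for Ppp1r1b. Drd1 turned from 0.45 ± 0.61 to -0.87 ± 0.41, Tac1 from 0.21 ± 0.39 to -0.48 ± 0.27 and Rgs9 from 0.83 ± 0.41 to -0.07 ± 0.14.

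The effect of tau in KO mice used the same PBS libraries. In male KO Tau against male KO PBS, 0% of genes passed the FDR and 7.95% had p under 0.05, and all 7 members had log2 fold changes below 0, with a median of -0.87 beside 0.00 over all genes. Drd2 (-2.30 ± 0.65, edgeR adjusted p = 0.550), Adora2a (-2.18 ± 0.93, edgeR adjusted p = 0.605) and Penk (-0.99 ± 0.38, edgeR adjusted p = 0.570) had p under 0.05.
Without replicate 752, 0% passed the FDR and 13.2% had p under 0.05, among them 2 members that then pointed in opposite directions. Drd2 kept its sign at -0.94 ± 0.37 (edgeR adjusted p = 0.322), and Ppp1r1b went from -0.49 ± 0.44 to 0.53 ± 0.17 (edgeR adjusted p = 0.229). Drd1, Adora2a, Rgs9 and Tac1 also changed sign, to 0.69 ± 0.41, 0.62 ± 0.33, 0.03 ± 0.14 and 0.46 ± 0.27.

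**Figure D5:**
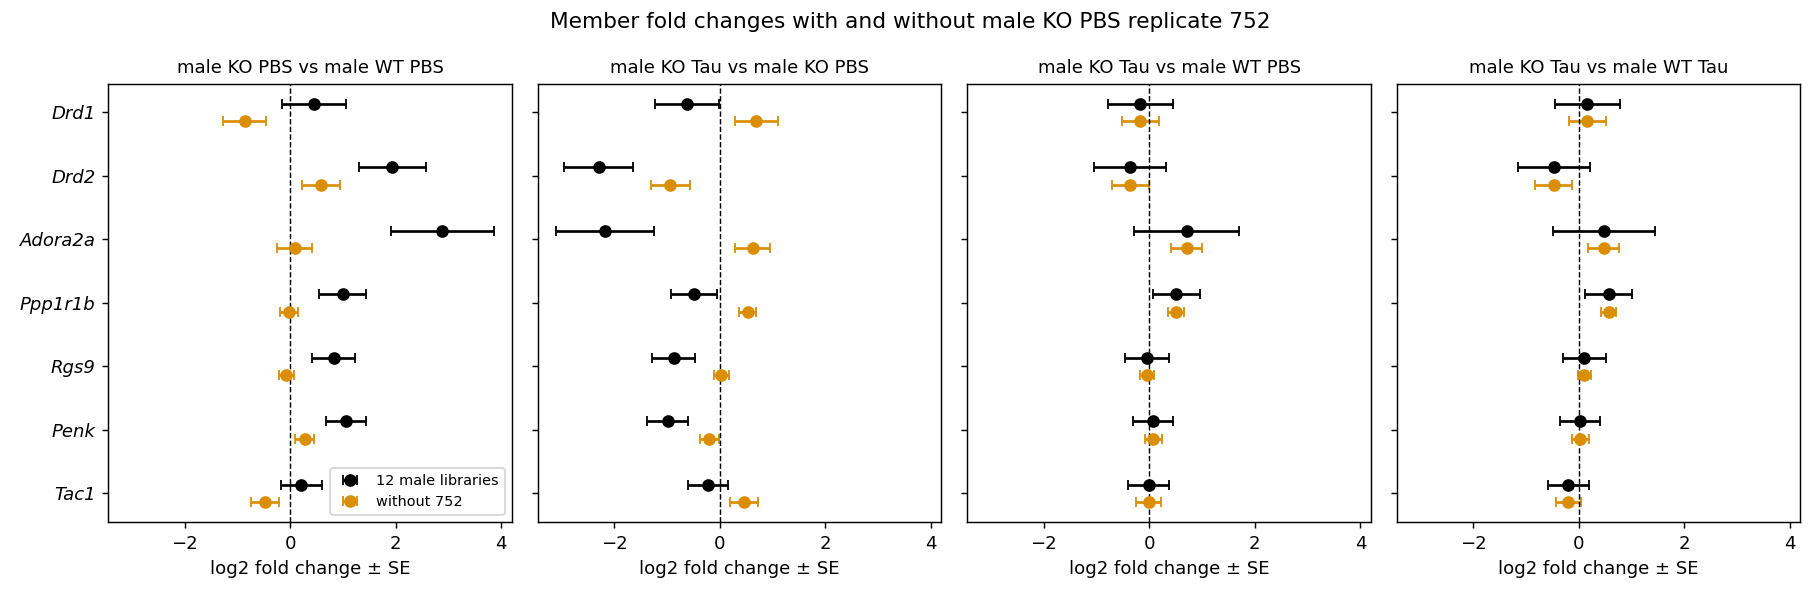
Log2 fold changes of the members (points, edgeR) with SE (bars) in 4 male comparisons, fitted on the 12 male libraries and without replicate 752. In the comparisons with male KO PBS most points move toward or across 0, and in the others they stay in place while the bars shorten.

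Tau-injected KO males were also set against PBS-injected WT males. In this comparison of KO Tau with WT PBS, 0.00662% of genes passed the FDR and 6.33% had p under 0.05, and 0 members had either. The members' log2 fold changes ran from -0.36 ± 0.68 for Drd2 to 0.71 ± 0.99 for Adora2a. Without replicate 752, 0.00655% passed the FDR and 8.63% had p under 0.05, among them 2 members with values almost unmoved, Adora2a (0.71 ± 0.29, edgeR adjusted p = 0.556) and Ppp1r1b (0.51 ± 0.15, edgeR adjusted p = 0.506).

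Under tau the genotypes were compared in each sex. In male KO Tau against male WT Tau, 0.00662% of genes passed the FDR and 4.71% had p under 0.05, with 0 members in either count. Ppp1r1b had the largest log2 fold change, 0.57 ± 0.45 (edgeR adjusted p = 0.927), although its 3 KO Tau libraries lay above the 3 WT Tau libraries. Without replicate 752, 0.00655% passed the FDR and 7.43% had p under 0.05, and Ppp1r1b was the only member in the latter (0.57 ± 0.15, edgeR adjusted p = 0.491).
Choroid plexus genes were higher in replicate 713, the highest male KO Tau library for Ppp1r1b, at 4142 CPM summed over 14 genes, against 300 in replicate 711 and 63.8 in replicate 712, and male WT Tau ran from 57.3 to 601 CPM. Neocortex genes summed to 854 CPM in replicate 712, 714 in 713 and 295 in 711, against 425 to 570 in the male WT libraries. The part of either list in the Ppp1r1b values was not tested.

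In female KO Tau against female WT Tau, 0.00649% of 15419 genes passed the FDR and 2.89% had p under 0.05, with 0 members in either count. The members' log2 fold changes were below 0 for 6 of 7, with a median of -0.60 beside -0.01 over all genes. The lowest was Adora2a (-1.25 ± 0.57, edgeR adjusted p = 0.997), followed by Drd2 (-0.84 ± 0.47), Tac1 (-0.77 ± 0.42) and Drd1 (-0.60 ± 0.43), and Ppp1r1b was at 0.13 ± 0.18.
Leaving out replicate 341 left 1 WT library, replicate 331, whose spread is then assumed to be that of the other groups. Replicate 331 stood apart in its own way: oligodendrocyte genes summed to 12029 CPM there (3082 to 7715 in the other 16 libraries), thalamus genes to 554 CPM (113 to 574) and CA1 genes to 201 CPM, the lowest of all. The part of these differences in the female values was not tested. With replicate 341 left out, 0.00635% of 15749 genes passed the FDR and 7.45% had p under 0.05. Adora2a then stood at 0.37 ± 0.55 and Penk went from -0.38 ± 0.37 to 0.83 ± 0.21 (edgeR adjusted p = 0.665), the only member with p under 0.05.

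The interactions test whether such effects differ. For genotype by treatment in males, 0% of genes passed the FDR and 4.18% had p under 0.05, with 1 member, Drd2 (-2.41 ± 0.93, edgeR adjusted p = 0.996), and Adora2a at the same log2 value with a wider error (-2.41 ± 1.36). Without replicate 752, 0% passed the FDR and 9.25% had p under 0.05, with 1 member again but another, Ppp1r1b (0.59 ± 0.22, edgeR adjusted p = 0.477), and Drd2 at -1.06 ± 0.50.
For sex by genotype under tau, 0% passed the FDR and 2.94% had p under 0.05, with 0 members in either count. Adora2a (-1.72 ± 0.80) and Ppp1r1b (-0.44 ± 0.23) had the lowest p, each adjusted to 0.978 by edgeR. Without replicate 341, 0% passed the FDR and 9.04% had p under 0.05, with 1 member, Penk (0.81 ± 0.25, edgeR adjusted p = 0.511), while Adora2a moved to -0.10 ± 0.67.

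The 25 other medium spiny neuron genes, of which 22 were tested, had 0 genes past the FDR in each comparison. In male KO PBS against male WT PBS, 20 of 22 had log2 fold changes above 0, with a median of 0.58 beside 0.01 over all genes, and 5 had edgeR p under 0.05 with 4.42% of all genes. Among the 6 with the highest mean CPM, Pde10a (0.74 ± 0.28) and Rasd2 (0.59 ± 0.24) did, and Adcy5 (0.25 ± 0.15), Gnal (0.21 ± 0.18), Bcl11b (0.10 ± 0.39) and Ptpn5 (0.07 ± 0.23) did not. Without replicate 752, 9 of 22 were above 0, the median was -0.08, and 3 had p under 0.05, with 5.76% of all genes. Pde10a then stood at 0.21 ± 0.14 and Rasd2 at 0.32 ± 0.21, and neither had p under 0.05.
In male KO Tau against male KO PBS, 2 of 22 were above 0, with a median of -0.40, and without replicate 752 12 of 22 were, with a median of 0.17. Between KO Tau and WT Tau males 16 of 22 were above 0, with a median of 0.14 with and without replicate 752. The 25 signalling partners include other dopamine, adenosine, opioid and tachykinin receptors and precursors of other opioid and tachykinin peptides. The rest are enzymes and transporters of dopamine and proteins that act with DARPP-32 and RGS9. Of the 25 partners, 23 were tested in males. None passed the FDR. Their median log2 fold change in male KO PBS against male WT PBS was 0.10, with 17 of 23 above 0. There, 2 had edgeR p under 0.05, beside 4.42% of all genes. In male KO Tau against male KO PBS the median was -0.13, with 6 of 23 above 0. Again 2 had edgeR p under 0.05, beside 7.95% of all genes. Without replicate 752, when 24 were tested, these medians were 0.03, with 13 of 24 above 0, and 0.05, with 14 of 24 above 0. Of the 24 partners that passed the filter over all libraries, replicate 752 was the highest library for 7, beside 9.58% of all genes.

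The likeness of the members across libraries was described by the Pearson r of log2 CPM over the 17 libraries, which share depth and replicate 752. It was above 0 for 21 of 21 pairs, with a median of 0.68, and after subtraction of group means it had a median of 0.72. By rank the median rho was 0.28, and without replicate 752 the median r was 0.27, with 17 of 21 pairs above 0.
By r, the pairs that stayed most alike without replicate 752 were Adora2a with Rgs9 (0.92 with and 0.79 without it) and Drd1 with Tac1 (0.78 and 0.75). By rank without replicate 752, rho was 0.485 for the first of these pairs and 0.647 for the second. Replicate 341 was then the highest library for both Adora2a and Rgs9. The first pair joins a gene of the indirect pathway with a gene of both, and the second joins the receptor and the neuropeptide of the direct pathway. Ppp1r1b with Drd2 went from 0.49 to -0.45.

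The 10 genes most like the mean of the 7 members, by the same r over 17 libraries, were Slc5a7 (0.93), Serpina9 (0.88), Rarb (0.86), Cd4 (0.84), Uxs1 (0.84), Dck (0.83), Syt6 (0.83), Ptprv (0.82), Scn4b (0.81) and Ido1 (0.80). Rarb, Scn4b and Ido1 were also on the list of other medium spiny neuron genes. Slc5a7, the choline transporter of cholinergic neurons, stood at 4.59 CPM in replicate 752 and at 0.423 to 1.02 CPM elsewhere.
Without replicate 752 the r of Slc5a7 was 0.64, and those of the others ran from 0.06 for Scn4b to 0.65 for Serpina9. None of the 10 remained among the 10 most like genes then, the nearest being Serpina9 at rank 50.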

How the data were processed

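Poly(A) RNA of 17 libraries of mouse dorsal hippocampus had been sequenced. The authors aligned the reads with STAR 2.5.2 to mm10 (GRCm38) and assigned them to exons with HTSeq 0.9.1, set to a reverse-stranded protocol. Each deposited value is an unnormalized read count for 1 gene symbol. The annotation release was not given in the sources used here. The main test was the quasi-likelihood test of edgeR 4.0.16 under R 4.3.3. Library sizes were scaled by TMM, genes were kept by filterByExpr at a minimum count of 10 and a total of 15, and p-values were adjusted by Benjamini-Hochberg (FDR 0.05). Male comparisons came from 1 fit of the 12 male libraries (15098 genes) and the others from 1 fit of the 11 Tau libraries (15419 genes). The study used the Wald test of DESeq2, which here was an alternative (version 1.42.0). Scripts were checked on simulated data. CPM were scaled to the library total, and log2 CPM for likeness used TMM and a prior count of 2. Lengths and positions came from GENCODE on GRCm38 and promoters from RefSeq on GRCm38.p6. The 95% intervals are exact for a ratio of counts.

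Genes were named by a rule: all 7 members, the 6 other medium spiny neuron genes with the highest mean CPM, any listed gene past the FDR, Acss2 and the 10 genes most like the members. Any other gene named was chosen after its values were seen, among them the genes that check sex. 1 gene of the list of other medium spiny neuron genes is counted but not reported by itself here. The members and lists were chosen with earlier results of these data known. Alternatives were other size factors (RLE), every gene with at least 1 count, only the groups compared, all 17 libraries in 1 fit, and each library left out in turn. Leaving out libraries outside the groups compared, and the lists without replicate 752, were added after seeing the data.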

Additional observations from a re-analysis of the deposited data

How the results depend on the processing

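No member passed the FDR in any of 140 combinations of comparison and setting. Under DESeq2, RLE factors, every gene with at least 1 count, all 17 libraries in the fit or only the groups compared, the members' log2 fold changes kept their sign. With a library left out, 34 of 658 changed sign, and replicate 752 or 341 was the library left out for the largest of these moves. The log2 fold changes that did so ran over these ranges with a library left out. For male WT Tau against WT PBS the ranges were Ppp1r1b -0.12 to 0.019 and Penk -0.016 to 0.098. For male KO PBS against WT PBS the ranges were Drd1 -0.86 to 0.84, Ppp1r1b -0.023 to 1.352, Rgs9 -0.073 to 1.13 and Tac1 -0.47 to 0.47. For male KO Tau against WT PBS the ranges were Drd1 -0.55 to 0.12, Rgs9 -0.14 to 0.03, Penk -0.008 to 0.18 and Tac1 -0.27 to 0.19. For male KO Tau against WT Tau the ranges were Drd1 -0.22 to 0.45, Rgs9 -0.012 to 0.18 and Penk -0.058 to 0.12. For male KO Tau against KO PBS the ranges were Drd1 -1.01 to 0.69, Adora2a -2.71 to 0.62, Ppp1r1b -0.84 to 0.53, Rgs9 -1.18 to 0.028 and Tac1 -0.49 to 0.46. For the genotype by treatment interaction the ranges were Drd1 -0.68 to 1.02, Adora2a -2.94 to 0.39, Ppp1r1b -0.79 to 0.59, Rgs9 -1.03 to 0.18 and Tac1 -0.68 to 0.28. For female KO Tau against WT Tau the ranges were Adora2a -1.98 to 0.37, Ppp1r1b -0.041 to 0.32, Rgs9 -0.52 to 0.032 and Penk -1.02 to 0.83. For the sex by genotype interaction the ranges were Drd2 -0.72 to 0.008 and Penk -1.04 to 0.81.

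Counts over all genes moved more than those of the members. DESeq2 called 2 genes in male KO PBS against WT PBS, 15 in male KO Tau against WT PBS, 4 in male KO Tau against WT Tau, 37 in male KO Tau against KO PBS and 1 in the sex by genotype interaction, where edgeR called 1, 1, 1, 0 and 0. With all 17 libraries in the fit, 3 genes passed in male KO Tau against WT PBS. With only the groups compared, 0 passed in female KO Tau against WT Tau in place of 1, and with a library left out 0 to 1 (0 without 324 or 331). The cause was not tested. The median likeness between members was 0.68 as r, 0.284 as rho and 0.266 as r without replicate 752. Mean CPM by TMM moved by less than 1 SD for 41 of 42 gene and group means. No paired analysis was possible because the groups share no replicate numbers. Groups of 2 or 3 libraries and counts as low as 11 reads (Drd2) limit what could be detected.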
